A study of Mus musculus with 6 samples.

Results

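Aquaporins are membrane channels that let water, and in some members glycerol or hydrogen peroxide, cross the cell membrane down a gradient. The water-selective (orthodox) members Aqp1, Aqp4 and Aqp5 pass mainly water, the aquaglyceroporins Aqp3, Aqp7 and Aqp9 also pass glycerol, and Aqp11 is a distant relative found on intracellular membranes. In the eye, AQP5 is the main water channel of the corneal epithelium, AQP3 is known from conjunctiva and skin, and AQP1 from corneal endothelium, keratocytes and blood vessels. The 7 genes were found by their symbols, each in 1 row of a table of 17866 genes.

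They were measured by bulk RNA-seq of corneal epithelium in 6 libraries, all from C57BL/6 mice aged 6 months, of which 3 carry the label wild type (WT) and 3 the label Rela-/- (KO). In the study the KO animals were Krt14-Cre; Rela f/f and the controls were of the same age, so Rela, which encodes the p65 subunit of NF-κB, was removed wherever the Krt14 promoter drives Cre, and Krt14 is also active in conjunctiva and skin. Each library came from a separate biological sample. According to the study, the central corneal epithelium of these KO mice was lost with age, and a skin-like epithelium later covered the centre. The authors sequenced RNA to learn what this replacement epithelium was, and they saw leukocytes and vessels in the stroma beneath. How far this tissue change accounts for the differences given below was not tested.

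The libraries held between 20158404 and 20880347 counts, and 3 counts corresponded to between 0.137 and 0.152 CPM (counts scaled to an equal library total). Such a floor accounts for counting error and nothing else. Values written with ± are the mean ± SD of a genotype (n = 3). For Rela the counts were 1871, 1844 and 1855 in WT against 318, 223 and 313 in KO, in the direction of the labels. Markers of corneal epithelium (Krt12, Pax6, Aldh3a1, Krt5 and Trp63) were present in every library, with a summed level of 84539 to 88015 CPM in WT and 20662 to 23170 CPM in KO. Within the KO sum, Krt5 alone stood at 10308.5, 10719.8 and 10612.3 CPM. Krt12, which the study calls specific to corneal epithelium, stood at 5555, 7770 and 8038 CPM in KO. The epidermal markers Krt1, Krt10, Lor and Flg summed to 15.1 to 20.1 CPM in WT and 10145 to 22708 CPM in KO. In these bulk samples, fewer cells of a type and less RNA per cell cannot be told apart.

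The family carries a signature of asparagine, proline and alanine in both arms of the channel, and the box in the second arm is shown because its surroundings separate the water channels from the aquaglyceroporins. Each sequence is 30 bases of coding sequence read from GRCm38 with the GENCODE M21 gene model, 5′ to 3′ on the coding strand, with the box in capitals.
Aqp5: ggctgttccatgAACCCAGCCcgatctttc
Aqp2: ggctgctccatgAATCCAGCCcgctccctg
Aqp1: ggctgcggtatcAACCCTGCCcggtcattt
Aqp3: ggctatgccgtcAACCCTGCCcgtgacttt
Aqp9: ggttgtgccatgAACCCTGCTcgagacctc
Aqp7: ggatatgcaatcAACCCATCCcgtgacctg
These windows lie at chr15:99593258-99593287 (Aqp5, plus strand, exon 3 of 4), chr15:99583112-99583141 (Aqp2, plus strand, exon 3 of 4), chr6:55345825-55345854 (Aqp1, plus strand, exon 3 of 4), chr4:41093832-41093861 (Aqp3, minus strand, exon 5 of 6), chr9:71122841-71122870 (Aqp9, minus strand, exon 5 of 6) and chr4:41034804-41034833 (Aqp7, minus strand, exon 5 of 6). In all of them the box is followed by an arginine codon. The next codon encodes serine in Aqp5, Aqp2 and Aqp1 and aspartate (gac) in Aqp3, Aqp9 and Aqp7. The box of Aqp7 ends in a serine codon (TCC) in place of the alanine codon. The coding sequence of Aqp11 held no such box followed by arginine.

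Of the 7 aquaporins, 4 had enough counts to be tested (Aqp3, Aqp5, Aqp7 and Aqp9). At an adjusted p of 0.05, Aqp9 was higher in KO, Aqp5 was lower, and Aqp3 and Aqp7 were not called. The background was broad, since 62.0% of the 13305 genes tested were called, 31.8% higher and 30.2% lower in KO. Aqp9 and Aqp5 also met the stricter criterion of the study (adjusted p of 0.001 or less, at least a 2-fold change), as did 19.8% of all genes tested, 11.6% being higher and 8.24% lower. The median log2 fold change of the 4 genes was 0.05, against 0.006 over all genes tested. Fold changes below are KO against WT and come from edgeR's quasi-likelihood test.

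Levels of different genes were compared in TPM, which corrects for gene length. In WT, Aqp5 was the most abundant member at 7451, 7340 and 7283 TPM, and ranked between 8 and 10 among all genes of a library. Aqp3 was the next at 2039, 2110 and 2273 TPM, ranked between 43 and 49. No WT library of Aqp3 reached a library of Aqp5. The remaining members were far below, with Aqp7 at 0.89 to 1.00 TPM, Aqp11 at 0.16 to 0.32 TPM, Aqp4 at 0.08 to 0.23 TPM, Aqp1 at 0.08 to 0.15 TPM and Aqp9 at 0 in every WT library. The ranges of Aqp11, Aqp4 and Aqp1 overlapped, so their order in WT was not resolved.

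In KO the order of the upper pair was the opposite. Aqp3 had 2176, 1811 and 2006 TPM and ranked between 64 and 88, while Aqp5 had 1256, 1322 and 1299 TPM and ranked between 118 and 128. Aqp9 followed at 1.07 to 1.77 TPM and Aqp7 at 0.70 to 0.81 TPM, without overlap between them. Aqp11 at 0.20 to 0.74 TPM overlapped Aqp7. Aqp4 at 0.07 to 0.16 TPM overlapped Aqp1 at 0 to 0.09 TPM.

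**Figure D1:**
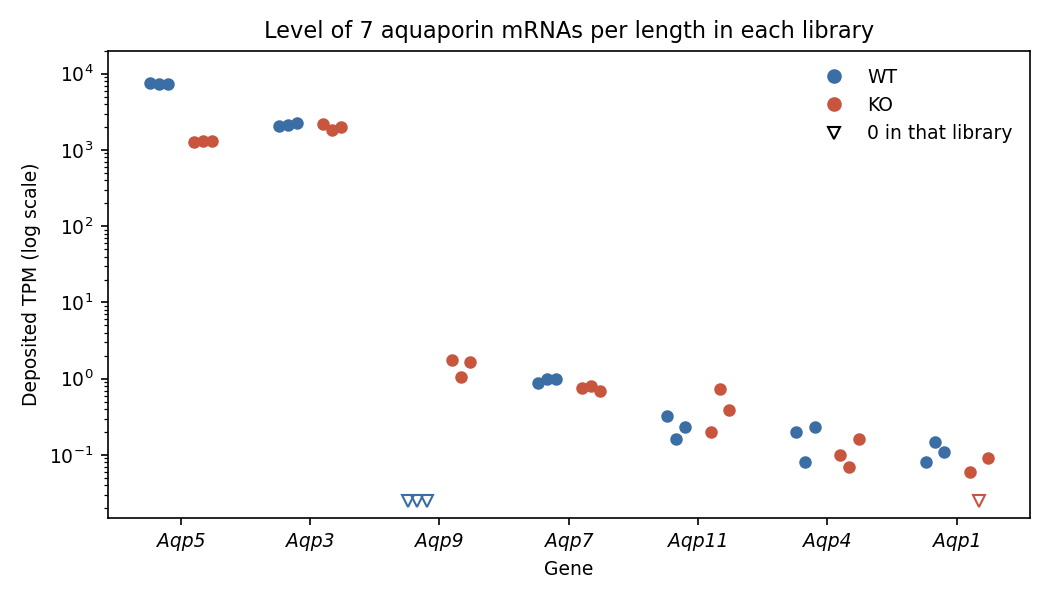
Deposited TPM of the 7 aquaporin genes, on a log axis, with 1 point for each WT (blue) and KO (red) library and an open triangle where a library is at 0. Aqp5 and Aqp3 lie above 1000 TPM in every library, Aqp9 is at 0 in the 3 WT libraries and at 1.07 to 1.77 TPM in KO, and the others stay at or below 1.00 TPM.

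Aqp5 (gene 11830, GRCm38 chromosome 15, positions 99591028 to 99594829, plus strand) is the water channel that the corneal epithelium is known for. Its counts were 109085, 109210 and 111854 in WT against 21832, 23008 and 23332 in KO. The groups did not overlap, as in 68.7% of all genes tested, and both were tight. The normalised read count averaged 5124 ± 154 CPM in WT against 1141 ± 30.7 CPM in KO. KO thus held 22.3% of the WT level, and the log2 difference of -2.17 (SE 0.111) exceeded the spread between replicates (adjusted p = 2.07e-06, edgeR). Aqp5 was called lower in all 15 alternative fits. The drop ran alongside that of Krt12, Aldh3a1, Krt5 and Pax6 of the corneal epithelium list, whose log2 fold changes were -2.36, -2.38, -1.35 and -1.54. The log2 fold change of Trp63, of the same list, was 0.03 and was not called. The part of a change in cell make-up in the level of Aqp5 was not tested.

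The genes nearest to Aqp5 in pattern were chosen by the root mean square difference of log2(CPM + 1), centred on each gene's mean, over the 6 libraries and among 10456 genes with a mean count of at least 100. They were B3gnt8, a glycosyltransferase gene, at a difference of 0.0757, Fam83a at 0.0849 and Parva, which encodes a focal adhesion protein, at 0.0862. B3gnt8 had 71.0, 64.8 and 67.0 CPM in WT and 14.8, 15.3 and 16.1 CPM in KO. The log2 fold changes of B3gnt8, Fam83a and Parva were -2.13, -2.30 and -2.12, beside -2.17 for Aqp5. Close fold changes follow from choosing genes by their pattern over the same libraries.

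The other water-selective members were close to the detection limit. Aqp1 (gene 11826), the channel of red cells, vessels and corneal endothelium, was counted 2, 4 and 3 times in WT and 2, 0 and 3 times in KO. Aqp4 (gene 11829), the main water channel of glia, was counted 10, 4 and 12 times in WT and 6, 4 and 10 times in KO, and its strand in the table is opposite to that in GENCODE. In both genes the groups overlapped, neither passed the filter on low counts, and a difference was not detectable at this depth. Among markers of cells known to carry Aqp1, those of blood vessel endothelium in the table (4 of 7) were near the floor and summed to 0.0458 to 0.426 CPM in WT and 0.903 to 1.06 CPM in KO, with Pecam1 called higher and Kdr at 0 to 2 counts in each library. Of 3 tested red cell markers, 2 were higher in KO, and the list summed to 3.77 to 6.16 CPM in WT and 6.88 to 9.42 CPM in KO. Of the corneal endothelium markers, Col8a1 was higher in KO, Slc4a11 was not called, Col8a2 had 0 to 2 counts in each library, and the list summed to 13.9 to 18.9 CPM in WT and 22.1 to 23.4 CPM in KO. Of the stromal markers, all 4 that were tested (Col1a1, Col1a2, Dcn and Vim) were higher in KO. Counts of called markers are to be read against the 31.8% higher and 30.2% lower among all genes tested. Col1a1 was called in 10 of the 14 alternative fits that tested it. Kera had no values, and Lum, which did not exceed 4 counts in any library, was not tested. The stromal list summed to 0.687 to 2.70 CPM in WT and 12.6 to 22.4 CPM in KO. Whether keratocytes contribute to this rise was not tested. Beside Aqp4, Sox10 was at 0 in 4 of the 6 libraries, while Mbp was lower in KO. The summed level of the glial list was 193 to 249 CPM in WT and 116 to 140 CPM in KO.

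**Figure D2:**
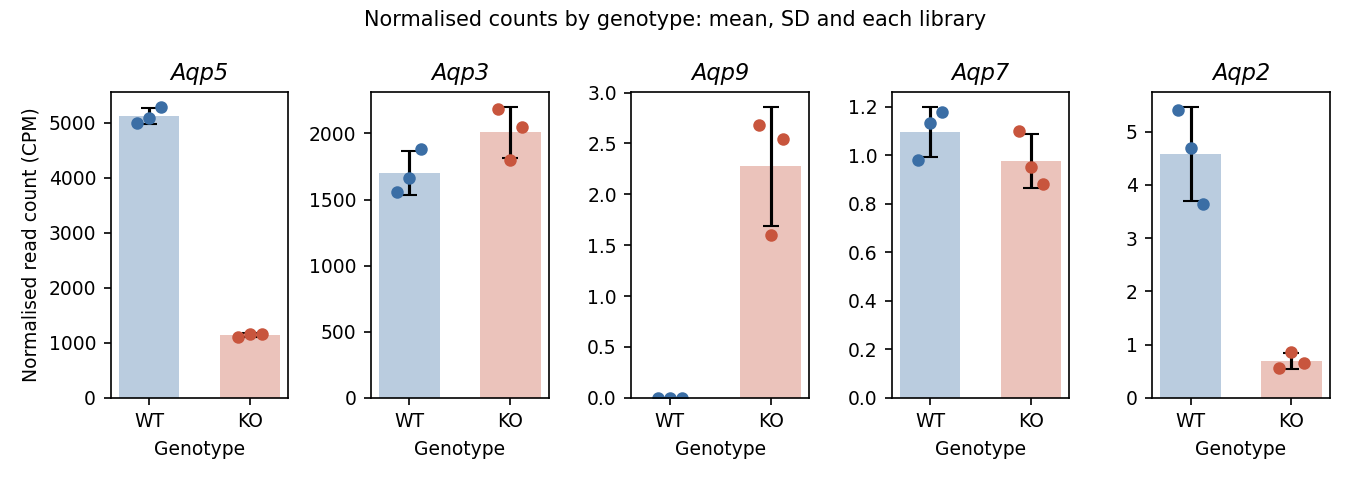
Normalised read counts (CPM) of the 4 tested members and of Aqp2 in WT and KO, with bars for the mean, error bars for the SD and a point for each of 3 libraries; each panel has its own axis from 0. The groups are apart for Aqp5, Aqp9 and Aqp2 and overlap for Aqp3 and Aqp7.

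Among family genes outside the 7, Aqp2 was the only one with enough counts to be tested. Aqp2 (gene 11827, chromosome 15, positions 99579056 to 99584545, plus strand), the vasopressin-regulated channel of the kidney collecting duct, gave 118, 101 and 77 counts in WT against 11, 17 and 13 in KO. It was 6.68-fold lower in KO (log2 fold change -2.73, SE 0.274, adjusted p = 6.34e-05, edgeR). Aqp2 ends 6482 bases before Aqp5 starts on the same strand, and its counts were 0.0688% to 0.108% of those of Aqp5 in WT and 0.0504% to 0.0739% in KO, so that the ranges overlapped. Whether reads from the Aqp5 locus contribute to Aqp2 was not tested. Mip had at most 3 counts in a library, Aqp6 and Aqp8 at most 2, and Aqp12 was not analysed here.

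Aqp3 (gene 11828, chromosome 4, positions 41092724 to 41098183, minus strand) passes water, glycerol and hydrogen peroxide and is the main aquaporin of epidermis. Its estimated counts were 34030.6, 35781.9 and 39799.2 in WT against 43103.8, 35921.6 and 41072.5 in KO. The KO library with the fewest counts lay within the WT range, so the groups overlapped. The normalised read count averaged 1703 ± 166 CPM in WT against 2010 ± 193 CPM in KO. The log2 fold change of 0.24 (SE 0.127) did not pass the test (adjusted p = 0.134, edgeR), and it lay between 0.01 and 0.33 over 15 alternative fits, none of which called it (adjusted p from 0.0695 to 0.942). The sign depended on the scaling, because the mean in TPM was lower in KO (2141 ± 120 TPM in WT and 1998 ± 183 TPM in KO). Over the tested genes above 0 in every library (12954 in CPM, 12949 in FPKM and 12953 in TPM), the median log2 ratio of the group means was -0.01 in CPM, -0.11 in FPKM and -0.35 in TPM, and Aqp3 stood 0.25 above it on each scale. Aqp5 stood 2.16 below it on each scale. Between these scales the KO to WT ratio of every gene shifts by nearly the same factor, so this agreement follows from the units. The estimated counts of Aqp3 were not whole numbers, so some of its reads were shared with other loci and its level carries that uncertainty.

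The genes nearest to Aqp3 in pattern were Chic2 at a root mean square difference of 0.0318, Trmt112, a methyltransferase cofactor gene, at 0.0340 and Pip5k1a, which encodes a phosphoinositide kinase, at 0.0507. Their log2 fold changes were 0.23, 0.24 and 0.31, and Pip5k1a alone passed the test (adjusted p = 0.0359, edgeR). Here too, fold changes close to that of Aqp3 follow from the choice by pattern.

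The make-up of the aquaporin mRNA differed between genotypes. The 7 genes summed to 9492, 9451 and 9558 TPM in WT and to 3435, 3136 and 3308 TPM in KO. Aqp5 made up 78.5%, 77.7% and 76.2% of this sum in WT and 36.6%, 42.2% and 39.3% in KO. Aqp3 made up 21.5%, 22.3% and 23.8% in WT and 63.3%, 57.7% and 60.6% in KO. The ratio of Aqp5 to Aqp3 was 3.45 ± 0.227 in WT and 0.652 ± 0.0765 in KO, so the water-selective channel led in every WT library and the aquaglyceroporin in every KO library. The other 5 members together made up 0.0156% in WT and 0.0868% in KO. These shares restate the levels above and were not tested again. The size of the fall in the sum depends on the scale. The median log2 ratio of the tested genes was -0.35 in TPM and -0.01 in CPM. In CPM the 7 genes summed to 6557 to 7183 in WT and to 2959 to 3293 in KO.

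**Figure D3:**
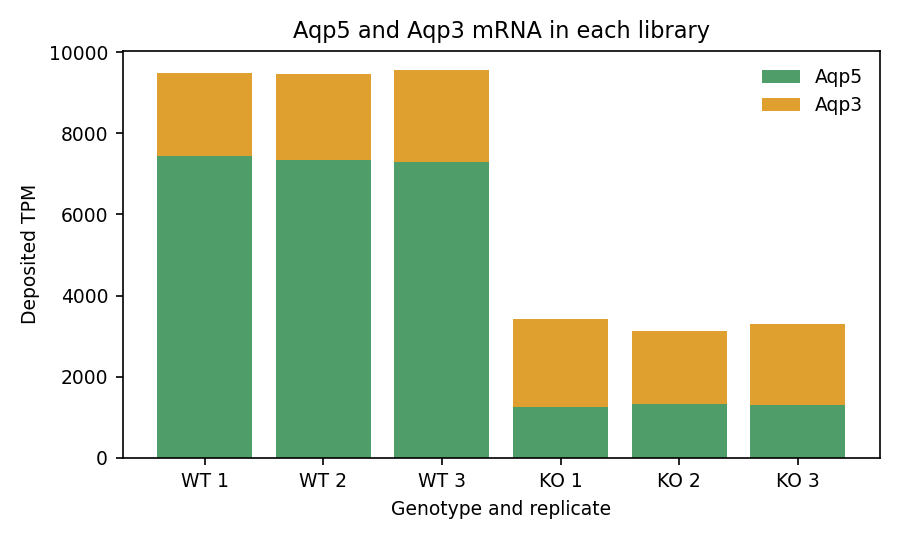
Stacked deposited TPM of Aqp5 (green) and Aqp3 (orange) in each library. The stack is about 9500 TPM in each WT library, most of it Aqp5, and between 3136 and 3435 TPM in each KO library, where Aqp3 is the larger part.

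Aqp9 (gene 64008, chromosome 9, positions 71110659 to 71168085, minus strand) passes water, glycerol and other small neutral solutes and is known from hepatocytes and leukocytes. No WT library held a count, whereas the KO libraries held 53, 32 and 51. The level in KO was 2.28 ± 0.586 CPM, which was at least 16.3-fold higher than the floor of 3 counts in each WT library (adjusted p = 1.21e-04, edgeR). The fitted log2 fold change depended on the small count that the model adds, so no value is given for it. Aqp9 was called higher in all 14 alternative fits that tested it. Leukocyte markers also moved, against a background of 31.8% higher and 30.2% lower in KO among all genes tested. Of 5 macrophage markers, Lyz2, Adgre1, Csf1r and Ptprc were higher in KO, and the list summed to 28.7 to 33.7 CPM in WT and 49.4 to 63.8 CPM in KO, most of the WT sum being Cd68, which was not called. Lyz2 went from 0, 2 and 2 counts in WT to 125.3, 209.7 and 226.9 in KO. Of 3 tested neutrophil markers, Csf3r and Cxcr2 were higher and Ly6g was lower in KO, the list summed to 6.44 to 14.3 CPM in WT and 8.13 to 11.0 CPM in KO, and Elane and Ngp had at most 1 count in a library. The part of leukocytes, or of the cells with epidermal markers given above, in the level of Aqp9 was not tested.

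Aqp7 (gene 11832, chromosome 4, positions 41028452 to 41061635, minus strand), the glycerol channel of adipocytes, was low in both genotypes. Its estimated counts were 21.4, 24.4 and 24.8 in WT against 21.7, 19.0 and 17.7 in KO, and the groups overlapped. It stood at 1.10 ± 0.103 CPM in WT against 0.978 ± 0.111 CPM in KO (log2 fold change -0.14, SE 0.265, adjusted p = 0.675, edgeR). None of the 14 alternative fits that tested it called it. Its estimated counts were not whole numbers either, and its start lies 31088 bases from the end of Aqp3 on the same strand. Of the 5 adipocyte markers, Adipoq, Plin1 and Cidec had no values. Fabp4, which other cells also express, went from 0, 9 and 2 counts in WT to 673, 1668 and 582 in KO. Retn had at most 1 count in a library. The part of Fabp4-expressing cells in the level of Aqp7 was not tested.

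Aqp11 (gene 66333, chromosome 7, positions 97724015 to 97738247) was counted 4, 2 and 3 times in WT and 3, 11 and 6 times in KO. The groups overlapped, the gene did not pass the filter on low counts, and its strand in the table is also opposite to that in GENCODE.

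To place the channels among the genes that handle their substrates, 5 further lists were examined. Of the genes of glycerol handling, 10 of 11 were tested, with 2 higher, 4 lower and 4 not called in KO (median log2 fold change -0.15). Gpd1l, which encodes a glycerol-3-phosphate dehydrogenase, had 149, 127 and 162 CPM in WT and 39.3, 48.4 and 54.0 CPM in KO (log2 fold change -1.63, SE 0.141, adjusted p = 2.99e-05, edgeR). The mitochondrial Gpd2 and the lipases Mgll and Pnpla2 fell by 0.43, 0.56 and 0.28 on the log2 scale, and the groups of Mgll overlapped. Abhd5, a lipase co-activator, and Pld2, a phospholipase, rose by 0.51 and 0.44. Pnpla2 was called in 7 and Mgll in 11 of 15 alternative fits. Leaving out WT replicate 1 reduced the calls in this list from 6 to 3.

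Of 10 tested genes for epithelial ion and fluid transport, which set the gradients that water follows, 6 were higher, 1 was lower and 3 were not called (median 0.77). Slc12a2, the sodium, potassium and chloride cotransporter NKCC1, had 583, 568 and 686 CPM in WT and 178, 243 and 229 CPM in KO (log2 fold change -1.50, SE 0.144, adjusted p = 5.09e-05, edgeR). Atp1b3, a beta subunit gene of the sodium pump, had 526, 495 and 555 CPM in WT and 738, 763 and 693 CPM in KO (log2 fold change 0.48, SE 0.0999, adjusted p = 0.00331, edgeR). Scnn1g, the gamma subunit of the epithelial sodium channel, had 0.504, 0.558 and 0.947 CPM in WT and 14.2, 13.9 and 14.0 CPM in KO. Its partner Scnn1b, the chloride channel gene Ano1 and the pump subunit Atp1b1, named after their values were seen, rose by 4.55, 4.83 and 2.04.

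Of 11 tested genes of the osmotic response and cell volume, 5 were higher, 2 were lower and 4 were not called (median 0.29). Nfat5, the transcription factor of the hypertonic response, had 203, 171 and 187 CPM in WT and 114, 124 and 116 CPM in KO (log2 fold change -0.67, SE 0.0948, adjusted p = 4.14e-04, edgeR). The osmosensitive channel gene Trpv4 fell by 0.91. The taurine transporter gene Slc6a6 and the inositol transporter gene Slc5a3 rose by 0.45 and 1.08, and the kinase gene Stk39, the chaperone gene Hspa4l and Clns1a rose by 2.90, 2.10 and 0.40. Slc6a6 was called in 11 and Clns1a in 13 of 15 alternative fits.

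Of 10 tested genes that make or remove hydrogen peroxide, a solute of AQP3, 6 were higher, 3 were lower and 1 was not called (median 0.73). The oxidase gene Duox1 had 15.9, 12.7 and 13.2 CPM in WT and 168, 119 and 177 CPM in KO (log2 fold change 3.47, SE 0.175, adjusted p = 2.03e-06, edgeR). The peroxiredoxin genes Prdx1 and Prdx2 rose by 1.2 and 0.97, whereas Prdx6 fell by 0.82. The oxidase genes Duox2 and Nox4 had log2 fold changes of -1.41 and -3.55. Duoxa1, Cybb and Cat, named after their values were seen, rose by 2.76, 3.25 and 0.50, and Cybb is also a phagocyte gene.

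Of 6 genes whose products bind or anchor aquaporins, all of them tested, 1 was higher, 3 were lower and 2 were not called (median -0.50). Ezr, which encodes the membrane linker ezrin, had 895, 837 and 810 CPM in WT and 395, 352 and 427 CPM in KO (log2 fold change -1.11, SE 0.111, adjusted p = 6.08e-05, edgeR). Dag1 and Dmd, of the dystrophin complex that anchors AQP4, fell by 0.89 and 0.75. These 5 lists hold between 6 and 12 genes, and the shares called are to be read against the 62.0% called among all genes.

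**Figure D4:**
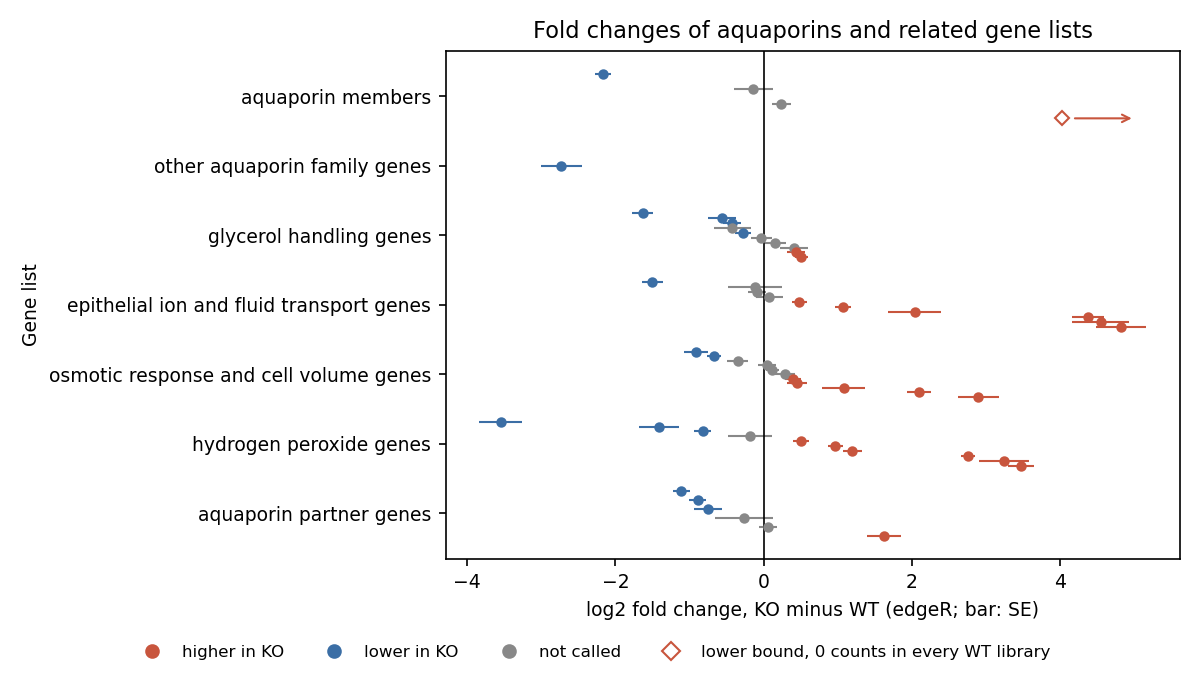
Log2 fold change (KO minus WT) of every tested gene of the aquaporins and of 6 related lists, with the SE as a bar, in red where higher, blue where lower and grey where not called at an adjusted p of 0.05. Aqp9 is drawn as an open diamond with an arrow at its lower bound, 16.3-fold higher. Aqp5 and Aqp2 lie to the left, Aqp3 and Aqp7 near 0, and the lists hold genes on both sides.

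As Rela encodes a DNA-binding subunit of NF-κB, the promoter windows of the aquaporins were searched for the NF-κB consensus, the tonicity element of Nfat5 and the GC box (GGGCGG), on both strands. The windows are those of RefSeq on GRCm38.p6, from 250 bases before to 50 bases after a gene's start. The search covered 6 of the 7 members, with 8 windows, and Aqp4 was left out of it. None of the 8 windows held the NF-κB consensus, which was found in 5.80% of 32851 windows of the same length. The tonicity element was found in 1 window, of Aqp7, and in 4.96% of all windows. The GC box was found in 3 windows, of Aqp5, Aqp3 and Aqp1, and in 35.7% of all windows. A window without a match says only that these letters are not in it.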

How the data were processed

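RNA from 3 WT and 3 KO samples of corneal epithelium was sequenced by the authors after depletion of ribosomal RNA. The reads were single-end and of 50 bases according to the methods, whereas the labels name an Illumina kit. The methods do not give the number of mice per RNA-seq sample. The submitters' processing notes name Bowtie2 2.2.5 and RSEM 1.2.12. They also name mm9, but the coordinates in the deposited table are those of GRCm38. The deposited table gives, for each gene and library, the expected counts that the authors estimated with RSEM, which shares reads that fit several genes, and the FPKM and TPM values the authors derived from them. Columns of the authors' own DESeq2 comparison (fold changes and adjusted p-values) were not used. All 18 per-library columns matched a sample. The strand used in counting is not given in the sources used here, and the table's strands of Aqp4 and Aqp11 differ from those of GENCODE.

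Genotype was taken from the labels. After rounding, the expected counts entered edgeR 4.0.16 (R 4.3.3, TMM factors, filterByExpr, quasi-likelihood F test, genotype alone in the model). Benjamini-Hochberg adjustment ran over 13305 genes. Each SE is |log2 fold change| over the square root of F. CPM used TMM-scaled totals, and TPM served for levels between genes. The alternatives were RLE factors, total counts only, DESeq2 1.42.0, no filter, a mean count of at least 50, limma 3.58.1 on log2(FPKM + 1) and log2(FPKM + 0.1), a loess correction for gene length, a replicate block, leaving out each library in turn, and FPKM in place of TPM. Scripts were tested on simulated counts. Tables and plots used Python 3.11.15, pandas 2.3.3, numpy 2.4.6 and matplotlib 3.10.9.

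The members, 6 pathway lists, 12 marker lists and tests were chosen with earlier results of these data known. The genes named were the members, Rela, the called genes of highest mean CPM in each list with those needed to describe small counts, and the 3 nearest in pattern to Aqp5 and Aqp3. Further genes are named as chosen after their values were seen. The values of some listed genes are not reported here. Markers of goblet cells and lens fibres were also summed. The goblet list summed to 1.02 to 2.03 CPM in WT and 7.22 to 29.4 CPM in KO, and the lens list to 4.31 to 5.58 and 7.65 to 7.82 CPM.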

Additional observations from a re-analysis of the deposited data

How the results depend on the processing

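Aqp5 and Aqp2 were called lower in all 15 alternative fits, with log2 fold changes from -2.47 to -2.13 and from -3.08 to -1.56. With a mean count of at least 50, 1 member was called in place of 2, because Aqp9 and Aqp7 were then not tested. Replacing TPM by FPKM moved the KO to WT ratio of Aqp3 from 0.933 to 1.10, of Aqp5 from 0.176 to 0.208 and of Aqp7 from 0.788 to 0.933. Leaving out 1 library at a time gave 2 to 2 called members, 3 to 7 called glycerol genes and 7282 to 8145 called genes in all. Deviations of WT and KO samples of the same replicate number had correlations of 0.06, -0.02 and 0.06. Those of the other pairs ran from -0.17 to 0.1. Such values cannot tell whether samples were paired. With the replicate block 2 members and 8083 genes were called. Without the filter on low counts, Aqp1, Aqp4 and Aqp11 were tested but not called (log2 fold changes -0.72, -0.29 and 1.21, adjusted p = 0.524, 0.701 and 0.157, edgeR).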

Other observations

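Aqp2, Aqp5 and Aqp6 lie within 26422 bases of chromosome 15, and the genes on either side were listed after the aquaporin values were seen. Of the 6 flanking genes, Bcdin3d and Asic1 were lower in KO (log2 fold changes -1.06 and -1.83, adjusted p = 4.10e-04 and 7.34e-05, edgeR), while Nckap5l, Faim2, Racgap1 and Smarcd1 were not called. Asic1, an acid-sensing ion channel gene, went from 138.9, 179.1 and 150.8 counts in WT to 41.0, 36.1 and 45.0 in KO, and the groups did not overlap. Racgap1, which lies between Aqp6 and Asic1, had counts of 1349.4, 1648.7 and 1518.0 in WT against 1728.0, 1522.0 and 1627.0 in KO, with overlapping groups.

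Around Aqp7 and Aqp3 on chromosome 4, Nol6 was higher in KO (log2 fold change 0.47, adjusted p = 0.00414, edgeR) and Ubap2 was lower (log2 fold change -0.51, adjusted p = 0.00592, edgeR). The other 4 flanking genes, Bag1, Chmp5, Nfx1 and Ube2r2, were not called. These neighbours are to be read against the 62.0% of all genes called.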
